A study of Bos taurus with 12 samples.

Results

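The comparison set bovine endometrium 7 days after povidone-iodine was placed in the uterus against day 0 of the same 3 cows. It used 6 of the 12 arrays of the study as the groups compared, and the other 6 (days 2 and 14) helped to estimate the spread. Povidone-iodine is a polymer-bound iodine that works as an antiseptic and is used in cattle as an intrauterine irritant. Each cow, called fertile in the labels, was biopsied on all 4 days, and total RNA of each biopsy was labelled with cyanine-3 and hybridised to 1 Agilent bovine oligonucleotide array. The day 0 group was 3 biopsies labelled as day 0 of the povidone-iodine treatment, and the day 7 group was the 3 biopsies of the same animals labelled as 7 days after it. The labels give no breed, age, uterine horn or stage of the oestrous cycle, and they do not say whether the day 0 biopsy came before the antiseptic. No untreated cow was among the samples, so treatment, elapsed time, oestrous cycle and earlier biopsies cannot be told apart in any difference below. The array samples were assigned by the columns of the deposited value table titled day 0 and day 7, paired by the cow's number, and every non-control probe that was well above background on at least 3 of the 12 arrays was tested.

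The endometrium is the lining of the uterus and consists of a surface epithelium, tubular glands that secrete into the lumen, a fibroblast-rich stroma and vessels, with smooth muscle beneath. Its genes follow the ovarian steroids: oestradiol induces the receptors for oestrogen, progesterone and oxytocin, and a long exposure to progesterone turns these down and fills the glands with secretion. After chemical injury the tissue sheds cells, draws in leukocytes, lays down a provisional matrix and regrows its epithelium.

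The arrays of both days had similar quality: 71.4 to 74.9% of probes were well above background on day 0 and 71.3 to 72.3% on day 7. The scanner files are linked to other samples than the table columns for 10 of the 12 arrays, although each file matched exactly 1 column at a correlation of 1.0 (the next best reached at most 0.52). The table's reading, in which each slide holds the 4 days of 1 cow in order, was used. Cow therefore cannot be told apart from slide, nor day from the place of an array on its slide. Under the file links limma called 0 probes (1770 at an unadjusted p under 0.05). Markers of epithelium and stroma were present: all 9 measured epithelial markers, such as KRT8 and EPCAM, and 21 of 22 stromal markers were well above background on all 6 arrays. So were all 19 measured markers of smooth muscle and pericytes. None of these lists is particular to the endometrium. HOXA10, which patterns the uterus, had a mean log2 signal of 2.83 on day 0 and 3.04 on day 7.

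Day 7 differed from day 0 over a large share of the genes. Of 12906 genes, each read at its brightest probe, 1405 were higher (10.9%) and 1079 lower (8.36%) at an adjusted p under 0.05 in limma, a linear model of the day with the cow as a block. Over probes the counts were 6100 of 33539 (18.2%), with 3446 higher (10.3%) and 2654 lower (7.91%). Among the 2484 genes called, the median size of change was 1.15 on the log2 scale, 1480 changed at least 2-fold, 507 at least 4-fold and 77 at least 16-fold. The direction was the same in 3 of 3 cows for 2481 of them, and for 2362 the day 0 and day 7 values did not overlap. Over all genes, 56.1% had the same direction in all cows and 40.6% did not overlap. In the single cows 3022, 3032 and 3172 genes (cows 1, 2 and 3) differed at least 2-fold. The counts depended on which cows entered: without cow 1 limma called 0 probes (6696 at an unadjusted p under 0.05), and without cow 2 it called 213, 208 of them among the 6100, whereas without cow 3 it called 6229, 4098 of them among the 6100. Fits without a single array called between 1817 (without day 7 of cow 2) and 4461 probes (without day 7 of cow 3). Throughout, log2 changes are day 7 minus day 0 with their standard error (SE, n = 3 cows), and log2 signals are relative to the 75th percentile of the array. A probe is called dim on a day when none of its 3 arrays was well above background, and a change from or to a dim day is given as at least so many fold. On the dimmer day 1 of 3 arrays was above background for NPR3, SLC4A4, CXCL8, DEFB7, MOGAT1, IGF2BP3 and HES6, and 2 of 3 for SLCO2A1, MUC13, KCNE3, CLDN23, TAP, DEFB4A, MMP7, RSPO3, SLCO1C1, ENPP3 and CDC20.

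**Figure D1:**
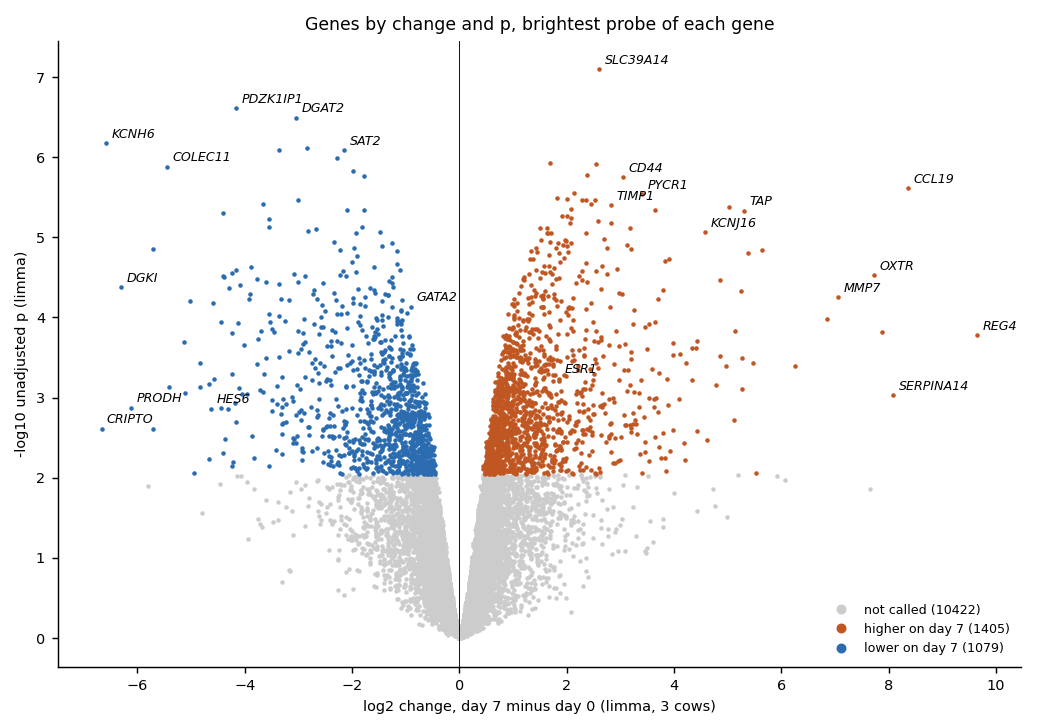
Log2 change from day 0 to day 7 (x axis) against -log10 of the unadjusted limma p (y axis) for 12906 genes, 1 point a gene. The 1405 genes called higher and 1079 called lower are coloured, with REG4 farthest to the right at a fitted 9.65 and CRIPTO farthest to the left at -6.67.

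OXTR and the steroid receptor genes ESR1 and PGR rose by day 7, while ESR2 fell on its brightest probe. OXTR, the receptor through which oxytocin starts uterine contraction and prostaglandin release, had log2 signals of -4.71, -4.11 and -6.09 on day 0 (cows 1, 2 and 3) and of 3.33, 3.61 and 1.33 on day 7. Even the lowest day 7 value lay far above the highest day 0 value, and the cows rose by 8.04, 7.72 and 7.42, so the change of 7.73 ± 0.95 (212-fold, adjusted p = 0.00363) was nearly the same in each. A second OXTR probe was dim on day 0 and above background on all 3 day 7 arrays. Both probes lie on the plus strand of chromosome 22 (Btau_3.1, the build of the probe coordinates), and the first 30 bases of each are shown because the largest receptor change rests on them.
OXTR, chr22:18295234-18295293: gattctcttcggagactgtctggcacaggc
OXTR, chr22:18294811-18294870: gtatagtgctgtatagagtactgtactgaa

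Of 13 measured steroid receptors and their partners, 5 were called higher and 2 lower (38.5 and 15.4%, beside 10.9 and 8.36% of all genes), with a median of -0.03. ESR1, the main oestrogen receptor of the uterus, rose by 1.86 ± 0.35 (adjusted p = 0.0121), from -5.16, -4.86 and -6.11 to -2.90, -3.56 and -4.07, without overlap. PGR, the progesterone receptor, rose by 1.74 ± 0.30 (0.00946). GREB1, an oestrogen-induced co-regulator, was dim on all day 0 arrays and rose at least 3.90-fold. NCOA3, a receptor coactivator (1.44), and FKBP4, a receptor chaperone (1.66), rose as well. ESR2, the second oestrogen receptor, went the other way by -3.10 ± 0.78 (adjusted p = 0.0305), from -0.27, -0.57 and -0.97 to -4.22, -4.82 and -2.08. Other ESR2 probes gave -2.1 (0.0877) and -2.21 (0.0673), without passing the test. NCOA1, another receptor coactivator, was the other member called lower. SERPINA14, the uterine serpin of the gland secretion, rose by 8.08 ± 1.62 (0.015), with rises of 5.35, 8.37 and 10.53 in cows 1, 2 and 3, so its size varied widely among cows. SOX17, a transcription factor of the glands, fell by 1.91 on the log2 scale and GATA2, a factor needed for progesterone signalling, by 0.91. Other GATA2 probes gave -0.64 (0.324), -1.2 (0.017) and -0.37 (0.434).

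Among 18 genes of prostaglandin synthesis, transport, breakdown and reception, 2 were called higher and 3 lower (11.1 and 16.7%), with a median of 0.20. HPGD, the enzyme that inactivates prostaglandins, had log2 signals of 2.78, 3.12 and 2.62 on day 0 and of -1.12, 0.13 and 0.27 on day 7. It fell in every cow, by 3.08 ± 0.75 on the log2 scale (adjusted p = 0.0283). PLA2G4A, the phospholipase that frees arachidonic acid, fell by 1.35, while thromboxane synthase TBXAS1 rose by 2.11 and the prostaglandin carrier SLCO2A1 by 1.55. PTGES, a prostaglandin E synthase, was at 1.84 on its brightest probe (0.0821), and its other probes gave 1.74 (0.114) and 1.90 (0.0482). PTGS2, the inducible cyclooxygenase, had differences of 1.68, 1.32 and -3.51 in cows 1, 2 and 3, so cow 3 went against the others (adjusted p = 0.916).

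Of 26 genes of natriuretic peptides and contraction, 5 rose, OXTR among them, and 1 fell (19.2 and 3.85%, median 0.60). NPPC, the precursor of C-type natriuretic peptide, rose by 4.18 ± 1.05 (adjusted p = 0.0302), with 6.39, 5.36 and 0.79 in cows 1, 2 and 3. Its clearance receptor NPR3 rose by 3.41 (0.049), but its day 7 value in cow 3 (-6.65) lay below the day 0 values of cows 1 and 2 (-6.35 and -5.74), so the groups overlapped. GJA1, the gap junction protein of contracting muscle, rose by 1.28. EDN3, an endothelin peptide, fell from 1.78, 2.15 and 1.36 to -3.62, -1.83 and -2.15, a change of -4.30 ± 0.55 (0.00412).

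**Figure D2:**
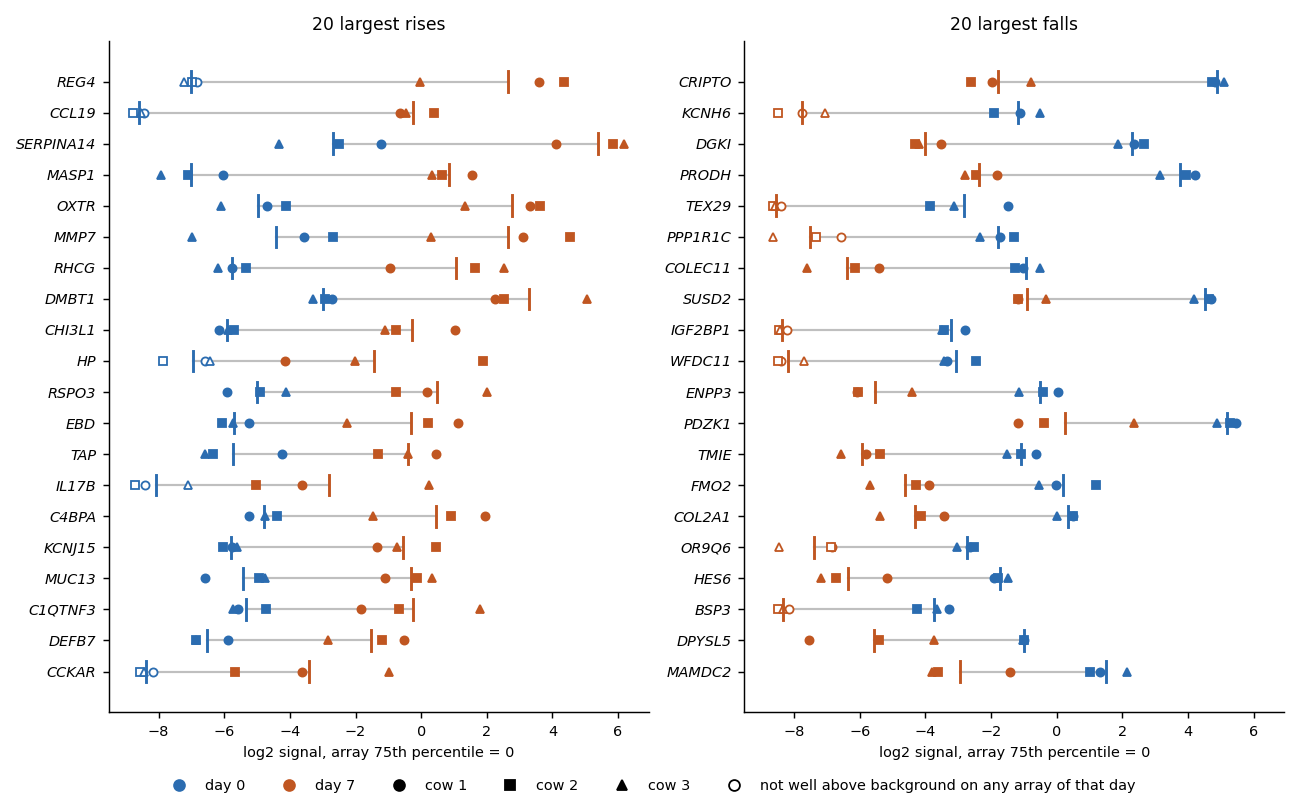
Log2 signal (x axis, array 75th percentile = 0) of the 20 largest rises and the 20 largest falls by the naming rule, on day 0 (blue) and day 7 (orange), with 1 symbol a cow, a bar at each mean and open symbols where no array of that day was well above background. The days do not overlap in any of the 40 genes, as the rule required, and the spread among cows is wide for HP and narrow for CCL19.

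Secretory and transport genes of the epithelium were among the largest rises. REG4, a secreted lectin of mucosal epithelium, was dim on all day 0 arrays (-6.84, -6.97 and -7.22) and reached 3.59, 4.35 and -0.04 on day 7, a rise of at least 578-fold (adjusted p = 0.00701). DMBT1, a mucosal scavenger receptor, rose by 6.26 ± 1.1, the membrane mucin MUC13 by 5.13 ± 0.78, and PIGR, which carries antibodies across epithelium, by 2.79 ± 0.67. These 4 were the called members among 15 mucin and mucosal genes (26.7% higher, none of the 15 lower). The list median was -0.06 in cow 1, 0.09 in cow 2 and 3.56 in cow 3. AGR2, a chaperone of mucin folding, had -0.92, -0.22 and 5.22 in the 3 cows, BPIFB1, a secreted airway and gut protein, had -5.96, -2.09 and 1.62, and both were far from the threshold (adjusted p of 0.405 and 0.457).

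Ion and water transport genes had 7 of 23 higher and 1 lower (30.4 and 4.35%, median 0.50). RHCG, an ammonia transporter, rose from -5.76, -5.34 and -6.19 to -0.95, 1.65 and 2.52 (6.84 ± 0.99, adjusted p = 0.00567). CA2, a carbonic anhydrase, rose by 4.09, the water channel AQP5 by 3.69, the chloride channel CFTR by 3.28 and the bicarbonate carrier SLC4A4 by 2.00. The subunits of the epithelial sodium channel did not pass the test, with SCNN1A at -2.39 (0.112) and SCNN1B at -1.92 (0.0522). CLCA1, a secreted protein of goblet cells, was dim on day 0 and had -7.71, -7.65 and -0.28 on day 7 in cows 1, 2 and 3, with 1 of 3 arrays above background (adjusted p = 0.198).

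Potassium channel genes split, with 4 of 19 higher and 5 lower (21.1 and 26.3%, median 0.14). The inward rectifiers KCNJ15 and KCNJ16 rose, KCNJ15 by 5.25 ± 0.68 on its brightest probe and 1.54 on another, and KCNJ16 at least 6.61-fold from below background. KCNN4, a calcium-activated channel, rose by 3.2, and the accessory subunit KCNE3 by 2.34. KCNH6, a voltage-gated channel, had -1.13, -1.92 and -0.52 on day 0 and was dim on every day 7 array. Its fall was at least 35.4-fold (adjusted p = 0.0017). KCNV1, a silent channel subunit, fell at least 4.96-fold, and KCNMA1, the large-conductance channel, fell by 2.42 on the log2 scale.

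Keratin and adhesion genes of the epithelium did not pass the test, whereas some tight junction and ciliated cell genes fell. Of 24 simple keratins and adhesion genes none was called by limma (0.00% beside 19.2% of all genes; 1 higher and 4 lower at an unadjusted p under 0.05), and the median was -0.16. KRT18 was at -0.65 (adjusted p = 0.113), and KRT7 at 2.29 (0.0527). Tight junction genes had 1 of 18 higher and 3 lower (5.56 and 16.7%, median -0.48): CLDN10 rose by 3.07, and TJP3, a junction scaffold, and CLDN23 fell by 2.11 and 2.06 on the log2 scale. Genes of ciliated cells had 2 of 18 lower and none higher (11.1% lower, median -0.86), CAPS at -1.65 and CCDC40, which assembles the cilium's axoneme, at -1.15 with overlapping days. KRT10, a keratin of stratified epithelium, fell at least 7.52-fold. In bulk tissue such as these biopsies, fewer cells of a type and less RNA per cell cannot be told apart.

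Antimicrobial and acute phase genes had 10 of 27 higher and none lower (37.0%, median 1.40). TAP, a beta-defensin first known from the airway, had -4.25, -6.33 and -6.58 on day 0 and 0.46, -1.32 and -0.39 on day 7, a rise of 5.30 ± 0.51 (adjusted p = 0.00195). CHI3L1, a chitinase-like lectin of inflamed tissue, rose by 5.64 ± 0.63. HP, haptoglobin, dim on day 0, rose at least 33.6-fold, to -4.14, 1.88 and -2.01 in cows 1, 2 and 3. S100A12, a calcium-binding protein of neutrophils, rose by 2.54 and BPI, which binds bacterial endotoxin, by 2.46. Another BPI probe gave 0.76 (0.36). Other members followed 1 cow. S100A9, the partner of S100A8, differed by 4.71, 0.74 and 0.23 in cows 1, 2 and 3, LTF, lactoferrin, by -2.04, -0.47 and 4.81, and PI3, an elastase inhibitor, by -1.20, -1.73 and 5.14. None of these 3 passed the test (adjusted p of 0.0989, 0.736 and 0.716).

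The beta-defensin probes share sequence, and this bears on how many defensin genes the array can count. The brightest DEFB7 probe (log2 change 5.02 ± 0.48) shares an unbroken run of 52 bases with a probe named EBD, the enteric beta-defensin (5.46), and of 45 bases with the brightest EBD probe (5.37 ± 0.61). The 30 bases below are aligned to the start of the DEFB7 probe, and capitals mark the bases equal to it.
DEFB7, chr27:7372716-7372775: CTGCGCCCTTCGACAGAACGTCTAAAATTT
EBD, chr27:7569347-7569406: CTGCGCCCTTCGACAGAACGTCTAAAATTT
EBD, brightest probe, chr27:7569340-7569399: CTGtGCCCTTCGACAGAACGTCTAAAATTT
DEFB4A, chr27:7609509-7609568: CTGCGCCCTTCaACAcAcCGTCTAAAATTT
The DEFB4A probe shown, which equals the DEFB7 probe at 27 of 30 positions, gave 3.54 ± 0.97 (adjusted p = 0.0406). Its name is uncertain, since its own accession carries the name of another defensin in the scanner file. A further EBD probe within this stretch, with 28 of 30 positions equal, gave 2.90 (0.0465). A further DEFB4A probe within it, with 27 of 30 positions equal, gave 3.2 (0.0538). Of the probes outside this shared stretch, that of EBD gave 2.92 (0.0498), and that of DEFB7 was dim on day 0 and above background on all 3 day 7 arrays, with runs of at most 16 bases shared with any other defensin probe. The DEFB4A probe outside it shares at most 7 bases with any other defensin probe and gave 3.81, without passing the test (0.0627). TAP shares at most 16 bases with these probes, and LAP, the lingual defensin, was at 0.44 (0.611). The values of the DEFB7, EBD and DEFB4A probes within the shared stretch are therefore not independent readings of 3 genes.

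Chemokine genes had 14 of 36 higher and 2 lower (38.9 and 5.56%, median 1.53). CCL19, which draws dendritic cells and naive lymphocytes, was dim on day 0 (-8.46, -8.77 and -8.55) and reached -0.65, 0.39 and -0.47 on day 7, at least 78.5-fold higher (adjusted p = 0.00187). A second probe under the same name gave -0.35 (0.721) and rose clear of the background on 1 of 3 arrays a day. The coordinates in the scanner files place the CCL19 probes on opposite strands, and their first 30 bases are given below:
CCL19, chr8:80276413-80276472, minus strand: agtgtcattgtgagtgtgagtgtgagtgag
CCL19, chr8:80276557-80276616, plus strand: ttcagtgattcacattctgtcttcagaaca
Across the genes called, 97.2% of 2366 other probes on the same strand went in the direction of the gene's brightest probe, and so did 90.9% of 11 probes placed on the opposite strand, CCL19 being the exception. The neutrophil attractants CXCL5 (4.78 ± 0.91), CXCL8 (2.87) and CXCL2 (at least 5.74-fold) rose, as did the monocyte attractants CCL2 (2.92 ± 0.44) and CCL8 (2.41) and the decoy receptors ACKR1 (2.28 ± 0.28) and ACKR3 (2.11). CXCR4, the receptor of CXCL12, fell by 1.49 on the log2 scale, most in cow 3 (-2.63). The interferon-induced chemokines CXCL10 and CXCL11 were at 0.54 (0.375) and 0.47 (0.536), while CXCL9 rose by 1.44.

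Complement genes had 9 of 30 higher and 1 lower (30 and 3.33%, median 0.86). MASP1, a protease of the lectin pathway, rose by 7.60, 7.75 and 8.26 in the 3 cows (7.87 ± 1.21, adjusted p = 0.00669), with 1 of 3 day 0 arrays above background. COLEC11, a collectin that binds microbial sugars in the same pathway, fell from -1.04, -1.26 and -0.52 to -5.43, -6.14 and -7.60 (-5.45 ± 0.45, 0.00172), with 1 of 3 day 7 arrays above background. The factors of the alternative pathway rose, CFB by 4.11 and CFP by 1.41, as did the inhibitor CFI by 3.54. Another CFP probe gave 0.82 (0.13). The terminal component C6, dim on day 0 and above background on 2 of 3 day 7 arrays, rose at least 3.12-fold. C4BPA, which holds back the classical pathway and was in no list, rose by 5.26 ± 0.89. The C1Q chains did not pass the test, with C1QA at 0.88 (0.189).

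Of 36 interleukin and receptor genes 7 rose and none fell (19.4%, median 0.31). IL1RN, the antagonist of interleukin-1, rose by 2.83, IL6 by 2.61 (adjusted p = 0.048), the oncostatin M receptor OSMR by 2.04 ± 0.28 and the receptor IL1R1 by 1.83 ± 0.28. IL17B, a cytokine of the interleukin-17 family, was dim on day 0 and rose at least 13.2-fold. Of 30 interferon-stimulated genes 1 rose and 4 fell (3.33 and 13.3%, median 0.12). GBP4, a guanylate-binding protein, fell by 3.46 ± 0.53 and HERC5, the ligase of the ISG15 tag, by 1.60 on the log2 scale. The classical markers differed by cow: ISG15 by 1.19, 1.29 and -2.45, and MX1 by 1.02, 1.72 and -1.68 in cows 1, 2 and 3. Neither passed the test (0.995 and 0.686). In the pattern recognition list, with 4 of 29 higher and 1 lower (13.8 and 3.45%), RELB rose by 1.20 and TLR10 fell at least 2.42-fold. In antigen processing, 3 of 18 rose (16.7%, none lower), among them CD74, the invariant chain of class II molecules (1.05), and IFI30, a lysosomal reductase (1.55 ± 0.21). Other CD74 probes gave 0.96 to 1.26 without passing the test (adjusted p of 0.0739 to 0.153).

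Several marker lists of leukocytes had their smallest values in cow 3. Of 22 macrophage genes 8 rose (36.4%, none lower), and the list medians were 2.00, 1.52 and 0.10 in cows 1, 2 and 3. CD14, the endotoxin co-receptor, had -0.46, -0.38 and -0.38 on day 0 and 1.99, 2.05 and 0.16 on day 7, a rise of 1.81 ± 0.43 (adjusted p = 0.0257) of which cow 3 showed little. TREM2, a lipid receptor of macrophages, rose by 2.41, FCGR1A, an antibody receptor, by 1.73 and CSF1R, the receptor of their growth factor, by 1.32. CD163, a haemoglobin scavenger, had 2.15, 0.73 and -1.16 (0.456). Dendritic cell genes had 1 of 11 called higher (9.09%, CD1B at least 12.5-fold), with list medians of 1.88, 2.07 and -0.11 in the 3 cows. Other CD1B probes did not pass the test (adjusted p of 0.118 and 0.281). Of 13 neutrophil genes 3 rose (23.1%), among them S100A12 and the histone-modifying PADI4 (2.02), while the granule genes MPO and ELANE were at -0.61 and 0.25 (0.503 and 0.611). T and NK cell genes had 2 of 21 higher and 1 lower (9.52 and 4.76%, median -0.09), with NKG7 at 1.68, and B and plasma cell genes 1 of 12 (8.33%), XBP1 at 0.60. Other XBP1 probes gave 0.03 (0.932) and 1.18 (0.0202). The haemoglobin gene HBA was at -2.51 on day 0 and -2.85 on day 7 on average, and AHSP, its chaperone, fell by 0.70 on the log2 scale. The mean log2 signal over the macrophage list was -2.14 to -1.80 on the day 0 arrays and -1.87 to 0.00 on the day 7 arrays. The part of leukocyte content in the changes of chemokine and complement genes was not tested.

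**Figure D3:**
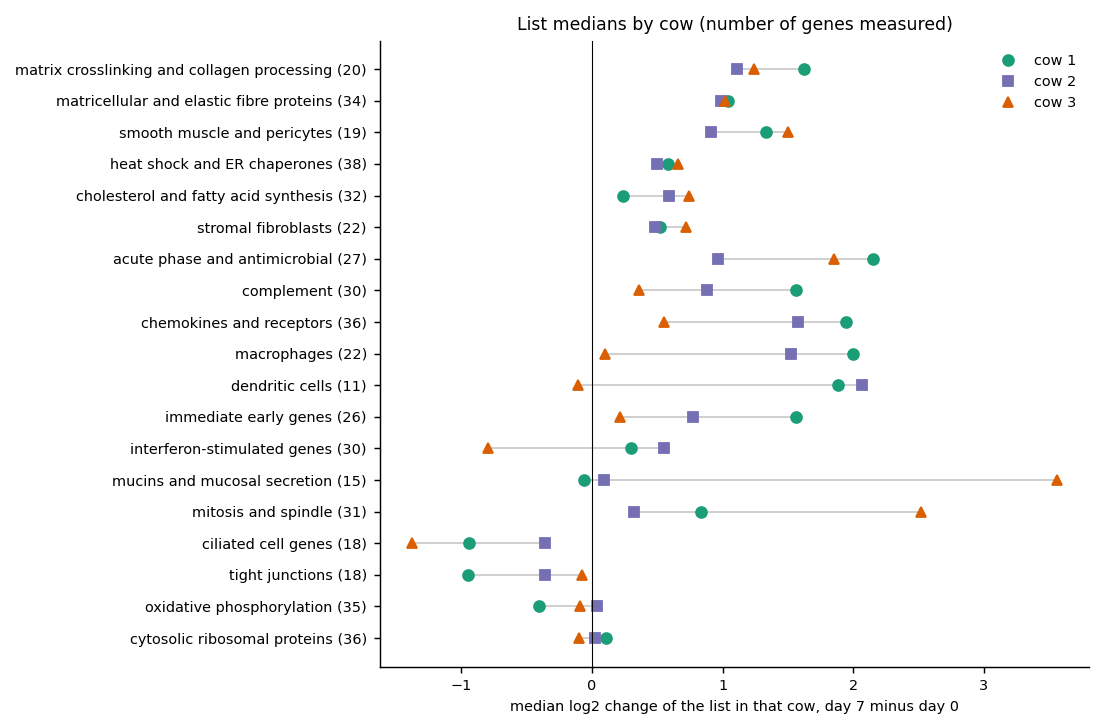
Median log2 change from day 0 to day 7 (x axis) of 19 gene lists in each cow (1 symbol a cow, number of genes measured in brackets). The matricellular list was near 1 in all cows (1.04, 0.99 and 1.02), whereas the macrophage list was at 2.00, 1.52 and 0.10 and the mitosis list at 0.83, 0.32 and 2.52.

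Many genes that process collagen or encode matricellular proteins rose, and a smaller share of the collagen chains did. The collagen processing list had the highest share called higher of all lists. Of 20 genes that process and crosslink collagen 12 rose and 1 fell (60 and 5%, beside 10.9 and 8.36% of all genes), with a median of 1.41 and cow medians of 1.62, 1.11 and 1.24. LOXL4, a crosslinking oxidase, rose from -2.52, -0.87 and -3.52 to 0.57, 3.05 and 0.96 (3.83 ± 0.44, adjusted p = 0.00318). SERPINH1, the collagen chaperone, rose by 1.76, its partner FKBP10 by 1.80 ± 0.30, the lysyl hydroxylase PLOD2 by 1.69, the oxidase LOX by 1.70, and PCOLCE and ADAMTS2, which trim procollagen, by 2.04 and 1.81. Both prolyl hydroxylases P4HA1 and P4HA2 rose, by 1.00 and 1.30. TGM2, a transglutaminase, was the member that fell, by 1.31 on the log2 scale. Of 26 collagen chains 5 rose and 2 fell (19.2 and 7.69%, beside 10.9 and 8.36% of all genes, median 0.20). The rises were led by COL12A1 (2.48) and COL15A1 (2.31). COL2A1, the cartilage collagen, fell by 4.67 on its brightest probe and by 4.86 on another, but a further probe gave 0.79.

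Matricellular and elastic fibre genes had 17 of 34 higher and none lower (50%, median 1.06). TNC, the tenascin of healing wounds, had -0.30, 0.30 and 0.71 on day 0 and 5.29, 5.12 and 4.88 on day 7. Within either day the spread among cows was small beside this rise of 4.86 ± 0.61 (29-fold, adjusted p = 0.00377). CCN3 (3.35), THBS2 (2.81), LTBP1, which stores latent TGF-beta (2.78), FN1, fibronectin (2.36), and FBLN5, an organiser of elastic fibres (2.28 ± 0.27), followed. Decorin (DCN) and biglycan (BGN), the small proteoglycans of resting matrix, were at 0.13 (0.714) and 0.54 (0.197).

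Among 29 metalloproteinase genes 6 rose and 1 fell (20.7 and 3.45%, median 0.51). MMP7, an epithelial protease, rose from -3.57, -2.69 and -6.99 to 3.11, 4.53 and 0.29 (7.06 ± 0.94, adjusted p = 0.00447). TIMP1, the main inhibitor, rose from 0.96, 1.30 and 1.16 to 4.42, 4.13 and 3.37 (2.83 ± 0.27, 0.00193). ADAMTS4, an aggrecanase, rose by 2.48. Fibrinolysis genes rose as well: PLAUR, the urokinase receptor, by 3.58 and PLAU by 2.64, within a coagulation list of 7 of 25 higher and 3 lower (28.0 and 12%). TFPI, which blocks the tissue factor pathway, rose by 3.2 ± 0.35, tissue factor itself (F3) fell by 1.14 and ADAMTS13, the von Willebrand factor protease, fell by 2.69 on the log2 scale. ITGA8 (3.1) and ITGB3 (at least 3.43-fold), integrin chains that bind matrix, and LAMA3, a laminin of epithelial basement membrane (at least 3.44-fold), were among 5 of 26 integrin and laminin genes that rose (19.2%, 1 lower).

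Smooth muscle genes had 8 of 19 higher and none lower (42.1%, median 1.29). TAGLN, an actin-binding protein of smooth muscle and myofibroblasts, rose by 2.93, 3.28 and 3.19 in the 3 cows (3.13 ± 0.62), ACTG2 by 2.87 ± 0.50, and desmin (DES) and TPM2 by 1.89 each. MYH11, the muscle's own myosin, was at 1.70 (adjusted p = 0.0957) and CALD1 at 0.01, or -0.15 under quantile scaling and -0.06 under median scaling. The stromal fibroblast list had 5 of 22 higher (22.7%, none lower, median 0.68), with DPT at 2.70 and LOX, named above. Endothelial genes had 5 of 19 higher (26.3%, none lower, median 0.12): the adhesion molecule SELP rose by 2.32, PECAM1 by 1.18 ± 0.23 and VWF, dim on day 0 and above background on 2 of 3 day 7 arrays, at least 1.21-fold. The mean log2 signal over the smooth muscle list was 1.19 to 1.62 on the day 0 arrays and 2.16 to 3.12 on the day 7 arrays, and over the stromal list 0.98 to 1.33 and 1.85 to 2.24. The part of these cell types in the changes of matrix genes was not tested.

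**Figure D4:**
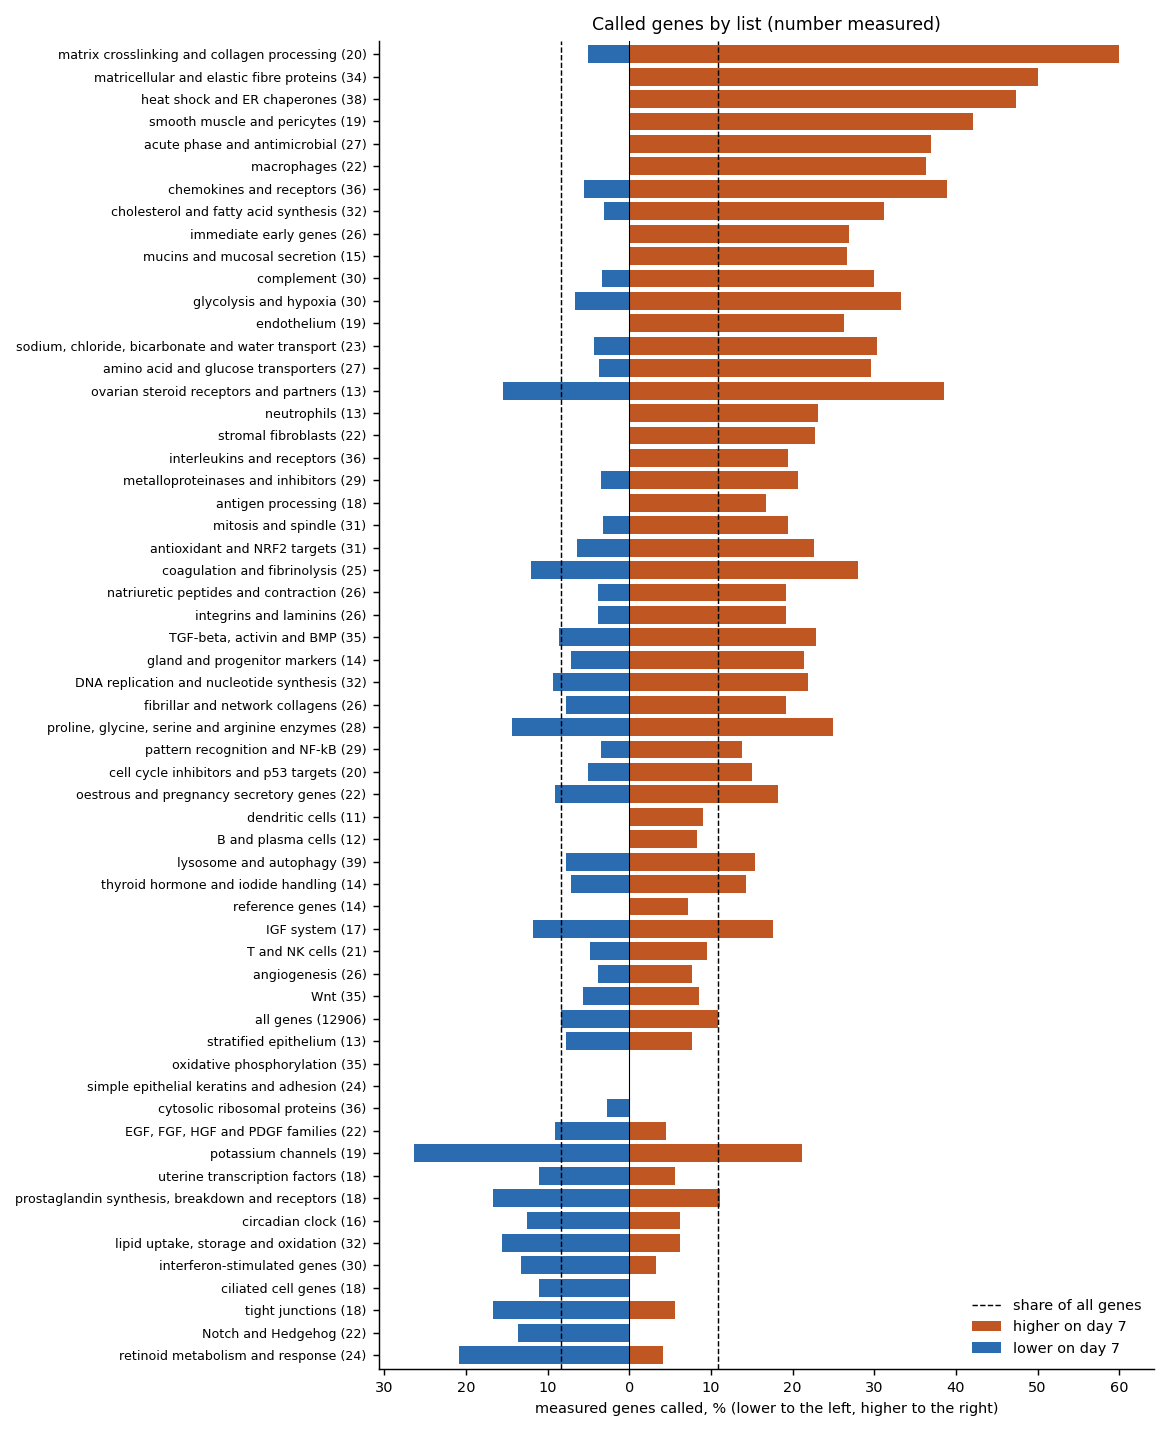
Share of measured genes called higher (right, orange) and lower (left, blue) on day 7 in each list with at least 10 measured genes, in percent, with the number measured in brackets and dashed lines at the shares over all genes (10.9% and 8.36%). Collagen processing reached 60% higher, and retinoid metabolism with 20.8% and potassium channels with 26.3% had the most genes lower.

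Genes of growth factor signalling moved singly more than as families. In the TGF-beta family 8 of 35 rose and 3 fell (22.9 and 8.57%, median 0.12). INHBA, the activin A subunit, rose from -0.35, -0.19 and 0.65 to 4.51, 4.41 and 4.19 (4.33 ± 0.81, adjusted p = 0.0123), and GDF15, a stress-induced ligand, at least 4.96-fold. CRIPTO, a co-receptor of Nodal, fell from 4.81, 4.74 and 5.10 to -1.98, -2.62 and -0.77 (-6.67 ± 1.56, 102-fold, 0.0245), and LEFTY2, a Nodal antagonist, fell at least 2.11-fold. CRIPTO is read by a single probe, on the minus strand of chromosome 22, whose first 30 bases are given because it carries the largest fall by the rule.
CRIPTO, chr22:54214193-54214252: tgccttgaaatagtgaatagatttccctgt
Wnt genes had 3 of 35 higher and 2 lower (8.57 and 5.71%, near the shares over all genes). The R-spondins, which amplify Wnt signals, went apart: RSPO3 rose by 5.47 ± 0.95, and RSPO2 fell at least 1.74-fold. WNT2 rose by 2.17 and WNT11 fell at least 8.27-fold. In the Hedgehog pathway the receptor PTCH1 and the factor GLI1, both also targets of the signal, fell by 2.30 and 1.86 on the log2 scale, within a Notch and Hedgehog list of none higher and 3 of 22 lower (13.6%). Other probes gave -1.17 (0.0987) and -1.9 (0.0372) for PTCH1 and -1.49 (0.109) for GLI1. VEGFD, a lymphatic growth factor, fell by 3.92 ± 0.53, and VEGFA rose by 1.35 ± 0.28, in an angiogenesis list of 2 of 26 higher and 1 lower (7.69 and 3.85%). IGFBP3 and IGFBP6, carriers of insulin-like growth factors, rose by 2.36 and 1.26, and the RNA-binding proteins IGF2BP1 and IGF2BP3 fell, IGF2BP1 at least 8.59-fold and IGF2BP3 by 3.30 on the log2 scale.

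Cell cycle genes differed in size among the cows. Of 32 genes of DNA replication 7 rose and 3 fell (21.9 and 9.38%, median 0.42). RRM2, which makes deoxynucleotides, rose from -4.76, -3.05 and -6.04 to -1.40, -0.28 and -0.81 (3.79 ± 0.49, adjusted p = 0.00417). The mitosis list had 6 of 31 higher and 1 lower (19.4 and 3.23%), with a median of 1.32 and cow medians of 0.83, 0.32 and 2.52. CDC20, which opens the exit from mitosis, had differences of 1.21, 0.08 and 5.12 (0.116), so cow 3 was well above the others. CCNB1, the mitotic cyclin, went against the list, from 2.36, 2.59 and 1.75 to -0.53, 0.29 and -0.16 (-2.37 ± 0.36, 0.00654), and its second probe gave -2.49. CCNB2 rose by 2.11 with overlapping days. The inhibitor CDKN2B rose by 3.65 ± 0.54, and the growth arrest genes GADD45G and GADD45A rose by 3.69 and 1.48, while GADD45B fell by 1.40 on the log2 scale (3 of 20 genes of this list higher and 1 lower, 15.0 and 5%).

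Amino acid enzymes changed in opposite directions around proline and serine. PYCR1, the last enzyme of proline synthesis, rose from -0.23, 0.20 and -0.64 to 2.67, 3.18 and 3.67 (3.40 ± 0.31, adjusted p = 0.00193). PRODH, which starts the breakdown of proline, fell from 4.21, 3.93 and 3.14 to -1.82, -2.46 and -2.79 (-6.12 ± 1.29, 69.4-fold, 0.0179). Neither gene's days overlapped, and all cows moved alike. OAT, which links ornithine to proline, rose by 1.76, while ALDH18A1, the first enzyme of proline synthesis, was at -0.99 (0.0896). On the serine side PHGDH and PSAT1, the first steps of its synthesis, fell by 3.04 and 2.21 on the log2 scale, and PSPH, the last, rose by 1.58. SRM, which makes the polyamine spermidine, rose by 2.36 ± 0.28 and SAT2, an acetyltransferase related to the enzyme that breaks polyamines down, fell by 2.15 ± 0.17. In all, 7 of these 28 enzymes rose and 4 fell (25.0 and 14.3%, median 0.06). Of 27 amino acid and glucose transporters 8 rose and 1 fell (29.6 and 3.70%), among them the glutamine carriers SLC1A5 (2.52 ± 0.23) and SLC38A5 (2.79), with SLC7A4 at -2.81.

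Several enzymes of glycolysis rose by small amounts. Of 30 glycolysis and hypoxia genes 10 rose and 2 fell (33.3 and 6.67%, median 0.22). PFKP rose by 1.34, PGK1 by 1.14, TPI1 by 1.05, PGAM1 by 0.87 ± 0.14, ALDOA by 0.81 and ENO1 by 0.57. The lactate carriers SLC16A1 and SLC16A3 rose by 1.41 and 1.27, while lactate dehydrogenase LDHA was at -0.69 (0.253) and the glucose carrier SLC2A1 at -0.87 (0.117). Of the hypoxia markers, ANKRD37 fell by 4.39 ± 0.54 and CA9 by 0.88 on the log2 scale. Another CA9 probe gave -0.73 (0.144), and the list members ADM, BNIP3, NDRG1, PDK1 and EGLN1 did not pass the test. GAPDH, often used as a reference, rose by 0.60 (0.0415, or 0.0894 under median scaling), from 4.91, 4.79 and 4.92 to 5.54, 5.40 and 5.48, the single called member of 14 reference genes (7.14%), and its 7 other probes gave 0.98 to 1.59. None of 35 genes of oxidative phosphorylation was called by limma (0 higher and 3 lower at an unadjusted p under 0.05), and the list median was -0.15.

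Genes of cholesterol synthesis rose, and the last steps of triglyceride synthesis fell. Of 32 cholesterol and fatty acid synthesis genes 10 rose and 1 fell (31.2 and 3.12%, median 0.50), including the regulator SREBF2 (1.74), SQLE (1.69 ± 0.25), HMGCS1 (1.12) and the desaturase FADS2 (1.86). Of 32 genes of lipid uptake, storage and oxidation 2 rose and 5 fell (6.25 and 15.6%, median -0.34). DGAT2, the last enzyme of triglyceride synthesis, fell from 0.84, 0.53 and 0.78 to -2.14, -2.38 and -2.46, with a small spread among cows (-3.04 ± 0.21, adjusted p = 0.0017). MOGAT1, which feeds that step, fell by 3.91 ± 0.52, and SLC27A6, a fatty acid carrier outside this list, fell by 4.31 on the log2 scale. The mitochondrial regulator PPARGC1A fell by 1.67, while the fatty acid-binding protein FABP5 rose by 1.75. Other FABP5 probes gave 1.1 (0.132) and 0.57 (0.522). Retinoid genes had 1 of 24 higher and 5 lower (4.17 and 20.8%, median 0.06). LRAT, which stores vitamin A as ester, fell from 0.82, 1.36 and 1.06 to -2.44, -2.76 and -1.46 (-3.30 ± 0.79, 0.0263), and RDH16, a retinol dehydrogenase, fell at least 7.11-fold.

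Genes that handle iodide and thyroid hormone had 2 of 14 higher and 1 lower (14.3 and 7.14%, median -0.21). The carriers TTR and SLCO1C1 rose by 3.36 and 1.91. The receptor THRA fell by 0.86 on the log2 scale on its brightest probe, but another probe gave -0.08 (0.896). SLC5A5, SLC26A4, DUOX1, DUOX2, DUOXA1 and DUOXA2 of this list were not measured. The thyroid's own genes TG and IYD were at -0.22 and -0.17 without passing the test (adjusted p of 0.733 and 0.766). Of 31 antioxidant genes 7 rose and 2 fell (22.6 and 6.45%, median 0.28), led by the plasma peroxidase GPX3 (at least 8.29-fold) and the metallothioneins MT2A (2.94 ± 0.35) and MT1A (1.65). Other MT2A probes gave 2.89 (0.00362) and 0.34 (0.499). SLC39A14, a zinc and iron importer, had the largest moderated t of all genes that rose: it went from -2.24, -2.26 and -2.21 to 0.29, 0.62 and 0.18 (2.60 ± 0.15, 0.00134), and the other probes above background on both days gave 2.43 and 2.82.

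All called genes of protein folding were higher on day 7. Of 38 heat shock and endoplasmic reticulum chaperone genes 18 rose and none fell (47.4%, median 0.52), with cow medians of 0.58, 0.50 and 0.66. PDIA4, which forms disulfide bonds, rose from 2.54, 2.93 and 2.81 to 4.88, 4.97 and 4.65 (2.07 ± 0.20, adjusted p = 0.00195). The reticulum's chaperones HSP90B1 (1.34), HYOU1 (1.40), CRELD2 (1.51) and MANF (1.07), the sensor ATF6 (1.68 ± 0.20) and the stress factor ATF3 (2.06) rose. HSPA5, the most general of them, was at 0.46 (0.0611) on its brightest probe, but its 3 other probes rose by 1.32 (0.00233), 1.49 (0.00195) and 1.40 (0.00346). The cell death factor DDIT3 was at -0.04 (0.925). Of 36 ribosomal protein genes 1 was called, RPL22 at -1.09 (2.78% lower), and the list median was 0.01. Immediate early genes had 7 of 26 higher (26.9%, none lower), with FOSL1 at least 4.85-fold, IER3 at 2.97 and FOS at 2.27. In the circadian list BHLHE40 rose by 2.37 ± 0.20, PER1 fell from 4.25, 4.50 and 4.51 to 2.74, 2.46 and 2.96 (-1.70, 0.0228), and DBP fell by 0.85 on the log2 scale, so that 1 of 16 rose and 2 fell (6.25 and 12.5%). The labels give no hour of sampling. Lysosomal genes had 6 of 39 higher and 3 lower (15.4 and 7.69%), with GM2A, the activator of ganglioside breakdown, at -3.96 ± 0.79.

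Other large or even falls had no common list. DGKI, a diacylglycerol kinase, fell from 2.34, 2.66 and 1.86 to -3.54, -4.33 and -4.20 (-6.31 ± 0.81, adjusted p = 0.00412), and SUSD2, a surface marker used to sort endometrial mesenchymal cells, from 4.69, 4.65 and 4.19 to -1.17, -1.19 and -0.32 (-5.41 ± 1.04). PDZK1, a scaffold under membrane transporters, fell by 4.95 ± 1.45 (0.0487), least in cow 3, whose day 7 value was 2.34 against -1.19 and -0.40. PDZK1IP1, a small protein that binds that scaffold, fell by 4.16 ± 0.28, nearly alike in the cows (0.0017). The flavin monooxygenase FMO2 fell by 4.83, the Notch-related repressor HES6 fell by 4.63 and the extracellular nucleotidase ENPP3 fell by 5.02 on the log2 scale. PACSIN1, a membrane-bending protein, fell by 2.85 ± 0.22. Among the even rises were CD44, the hyaluronan receptor, from -3.52, -3.79 and -3.52 to -0.60, -1.19 and 0.10 (3.04 ± 0.26), MAN2A1, a Golgi mannosidase (1.69 ± 0.14), and FADS3, a desaturase relative (2.14 ± 0.19).

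The same fit set day 7 against its neighbouring days for the genes above, with the limit that all these contrasts share the day 7 arrays. For some, day 7 stood apart from both neighbours. TAP was higher on day 7 than on day 2 by 3.63 (adjusted p = 0.0371) and its difference of day 14 from day 7 was -4.37 (0.0357). PACSIN1 fell by 1.73 after day 2 (0.029) and regained 2.71 by day 14 (0.0188), SAT2 fell by 1.51 after day 2 (0.029) and regained 1.54 (0.0357), and SLC39A14 rose by 1.48 after day 2 (0.029) and fell by 1.69 to day 14 (0.0209). For others only the step before day 7 passed the test: NPPC rose by 7.55 (0.0371) and CDKN2B by 3.77 (0.0371) after day 2, and CCNB1 fell by 2.59 (0.0371) and COLEC11 fell by 4.02 (0.029) on the log2 scale. MUC13 fell by 6.82 from day 7 to day 14 (0.0357). In DGAT2, CD44 and PYCR1 the difference was there on day 2 (log2 changes from day 0 of -2.52, 2.63 and 2.59), and the further step to day 7 was -0.53, 0.42 and 0.80 (adjusted p of 0.232, 0.441 and 0.217). OXTR was at 4.06 on day 2 and 6.10 on day 14 against day 0 (0.0658 and 0.0545), and day 14 differed from day 7 by -1.63 (0.399).

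**Figure D5:**
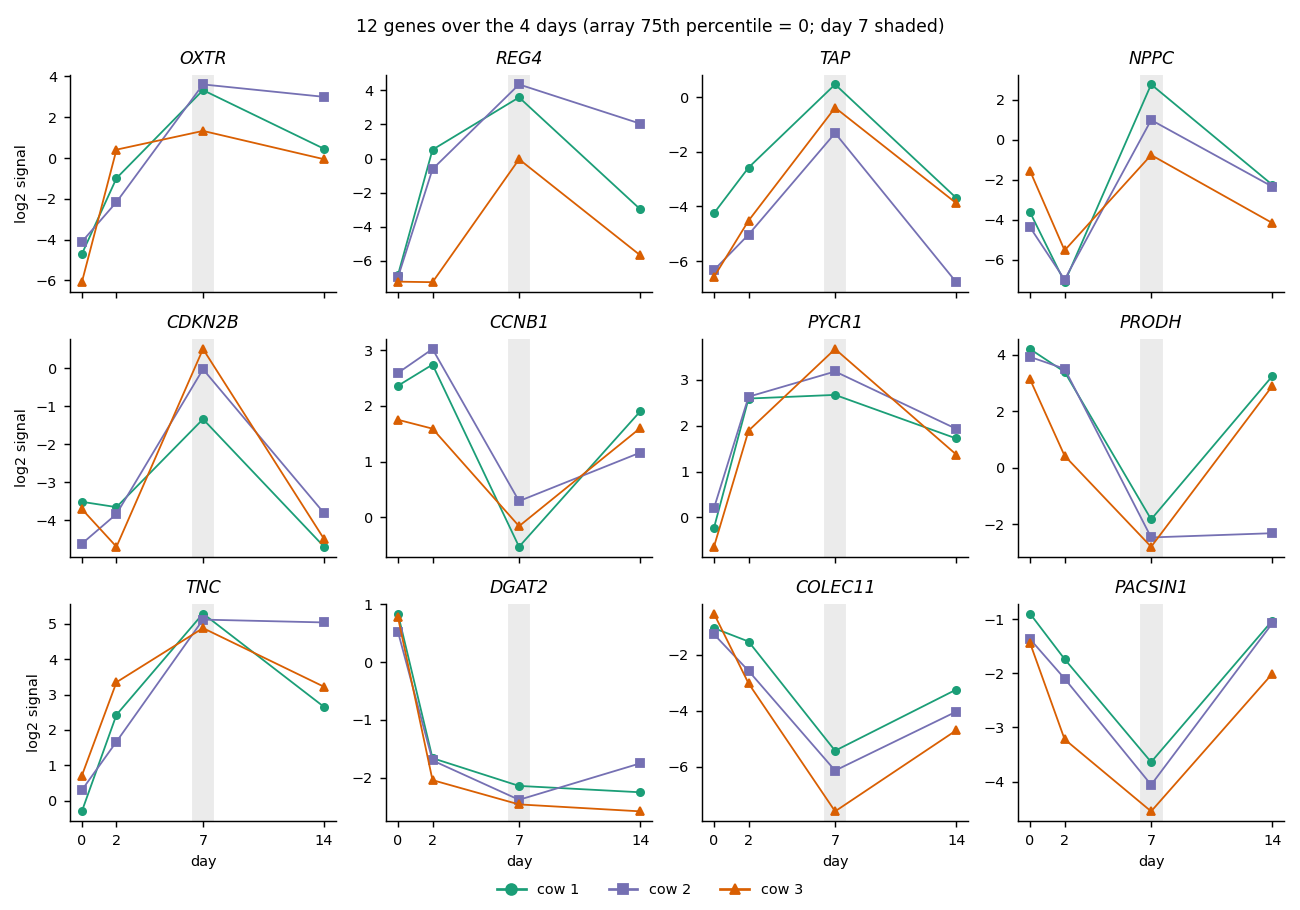
Log2 signal (y axis, array 75th percentile = 0) of 12 genes on days 0, 2, 7 and 14 (x axis) with 1 line a cow and day 7 shaded. TAP, NPPC and CDKN2B peak on day 7 in all 3 cows and PACSIN1 and COLEC11 are lowest then, while DGAT2 is already low on day 2.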

How the data were processed

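Total RNA of 12 endometrial biopsies (3 cows on days 0, 2, 7 and 14) was hybridised to 1-colour Agilent arrays, per the labels. The deposited scanner files hold probe intensity already background-corrected by Agilent's Feature Extraction (the file headers name 11.5.1.1 and the submitters' processing notes 10.5.1.1), with probe coordinates on HGSC Btau_3.1. The authors' deposited value table holds log2 values that equal these intensities scaled to the array's 75th percentile and centred on each probe's median. The columns had medians of 0.01, -0.03 and -0.07 on day 0 and 0.08, -0.02 and 0.00 on day 7.

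Control spots (1417) and 31 flagged probes were left out, and 33539 of 43622 probes, well above background on at least 3 of 12 arrays, were kept. The log2 of the processed intensity, less the 75th percentile of its array (825 to 1118 in linear units) was fitted in limma 3.58.1 (R 4.3.3) with terms for day and cow over all 12 arrays, and p-values were adjusted by Benjamini-Hochberg over all kept probes, with 0.05 as threshold. Where the text gives a bare value in brackets after a log2 change, it is this adjusted p. Same-cow arrays, which also shared a slide, deviated together from the day means (mean correlation 0.285 over 18 pairs, 0.0235 to 0.497). Over the 3 pairs of day 0 and day 7 the mean was 0.132 (0.0315 to 0.188). The 36 pairs of different cows gave -0.136. That value is no separate support for the pairing, since the deviations of a day cancel out over its cows. Symbols came from accessions or names in RefSeq's ARS-UCD2.0 gene table (32424 probes), and the brightest kept probe stood for each gene.

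The gene lists and the comparison were chosen with earlier results of these data known. Named genes were the 20 largest rises and falls among called genes without overlap, the 10 rises and falls of largest moderated t, up to 4 called members of each list by size (the 2 of smallest p where fewer than 2 were called), and ESR1, PGR and OXTR; further list members were chosen after their values were seen. Alternatives changed the block, samples, filter, scaling, background, weights, prior, probe rule and animals.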

Additional observations from a re-analysis of the deposited data

How the results depend on the processing

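Relative to the 6100 probes called, the fit without cow as a replicate block called 4445 (1032 genes higher and 815 lower), and cow paired the days by label; 28 of 251 genes named in the text then missed the threshold and none turned. The fit of only the 6 arrays of days 0 and 7 called 1879 probes (407 genes higher and 382 lower), array weights 10432 (2392 and 1892), and the file links 0 (0 and 0). Leaving out a cow or a single array gave 0 to 6229 probes, 0 to 1441 genes higher and 0 to 1142 lower. The cause of these differences was not tested. Another filter, scaling, source, probe rule or prior kept all 3 counts within 1.5 times, and the median change over all probes was 0.04 as reported, -0.01 under quantile scaling, -0.03 under median scaling and 0 under normexp. Of the named genes 10 missed the threshold under median scaling, 10 under quantile scaling and 23 under normexp, HP, IL6 and CD74 under each of these. Genes that turned without passing the test were CALD1 (-0.02 under array weights, -0.06 under median scaling, -0.15 under quantile scaling and -0.23 under normexp), ISG15 (-0.06 under median scaling, -0.02 under quantile scaling), PTGS2 (0.62 under array weights, 0.21 as mean of probes, 0.24 under normexp), PI3 (-0.74 under array weights, -0.90 as mean of probes), TG (0.11 under array weights, 0.02 under normexp), DCN (-0.02 under normexp), and under array weights CXCL11 (-0.01), DDIT3 (0.15) and MPO (0.29). Without 1 cow or array the log2 change ranged over both signs for CALD1 -0.17 to 0.17, CD163 -0.21 to 1.44, ISG15 -0.63 to 1.24, EPCAM -0.29 to 0.57, HBA -0.88 to 0.38, MX1 -0.33 to 1.37, AGR2 -0.57 to 2.50, DDIT3 -0.20 to 0.29, LTF -1.25 to 2.17, MPO -1.42 to 0.01, PI3 -1.47 to 1.97, PTGS2 -1.10 to 1.50, TG -0.57 to 0.43, IYD -0.41 to 0.10, BPIFB1 -4.03 to 0.04, ELANE -0.03 to 0.63, CXCL11 -0.05 to 0.89. The file links turned 109 of the 251 genes, with log2 changes of ACTG2 -0.59, ADAMTS13 0.92, ALDOA -0.34, AQP5 -0.17, ATF6 -0.05, BHLHE40 -0.73, C1QA -0.24, C4BPA -0.05, CA2 -0.00, CA9 0.12, CALD1 -0.08, CCL19 -0.85, CCL2 -0.03, CCL8 -0.18, CCNB2 -0.09, CD14 -0.25, CD163 -0.94, CD44 -0.54, CD74 -0.47, CDC20 -0.49, CFB -1.82, CFP -0.59, CHI3L1 -1.89, CLCA1 -1.83, CRELD2 -0.04, CSF1R -0.53, CXCL10 -1.09, CXCL11 -1.45, CXCL12 -0.21, CXCL2 -0.43, CXCL8 -0.65, CXCL9 -1.91, CXCR4 0.33, DBP 0.09, DDIT3 0.38, DEFB4A -1.27, DEFB7 -0.97, DES -0.31, DMBT1 -0.13, EBD -1.07, EDN3 0.31, ELANE -0.08, ENO1 -0.24, ESR1 -0.67, FABP5 -0.17, FADS2 -0.01, FADS3 -0.21, FCGR1A -0.30, FOS -0.06, FOSL1 -1.28, GADD45G -0.07, GAPDH -0.06, GDF15 -0.36, GLI1 0.90, GPX3 -0.95, HP -0.26, HYOU1 -0.25, IFI30 -0.09, IGFBP3 -0.24, IL1RN -0.50, IL6 -0.19, ITGA8 -0.30, ITGB3 -0.42, KCNV1 0.46, KRT18 0.24, LAMA3 -0.45, LEFTY2 0.21, LTBP1 -0.13, LTF -1.11, MAN2A1 -0.50, MASP1 -0.96, MMP7 -0.65, MPO 0.48, MT1A -0.75, MT2A -0.45, MYH11 -1.08, NCOA3 -0.07, NKG7 -0.21, NPR3 -0.30, OSMR -0.21, PDZK1IP1 0.89, PECAM1 -0.03, PFKP -0.19, PGAM1 -0.25, PGR -0.02, PSPH -0.43, PYCR1 -0.19, RPL22 0.23, RRM2 -0.11, RSPO2 1.87, S100A12 -1.05, S100A8 -1.06, S100A9 -0.68, SCNN1B 0.68, SERPINA14 -3.66, SERPINH1 -0.04, SLC16A3 -0.07, SLC1A5 -0.32, SREBF2 -0.13, SRM -0.03, TAGLN -0.38, TAP -2.76, TFPI -0.61, TIMP1 -0.59, TLR10 0.37, TPM2 -0.31, TREM2 -0.61, VWF -0.08, XBP1 -0.14. Promoter motifs were not run, since no promoter sequence was used here. The number of arrays, 3 a day, limits the precision, as does signal near background for the genes given as bounds.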

Other observations

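Some genes had more than 1 probe, and in a few of those called on day 7 another probe of the same strand was called in the opposite direction. ADAMTS17, a matrix protease, was at -3.36 on its brightest probe and 1.60 on another (limma, adjusted p = 0.0402). MAP4, which binds microtubules, was at 0.70 and -1.62 (0.0183), and PSTPIP1, an adaptor of leukocyte cytoskeleton, at 1.31 and -0.72 (0.0474). These 3 were the only genes of this kind among 1461 with another probe on the same strand.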
